A study of Mus musculus with 10 samples.

Results

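Kinesins are motor proteins that walk along microtubules, and the 28 kinesin genes measured here are those whose symbol in the probe annotation begins with Kif or Kifc followed by a number. They were measured with 64 probe sets, out of 22690 probe sets and 12393 genes with a probe set of a single symbol on the array. A probe set is the group of short oligonucleotides that reports the RNA of 1 gene, and its intensity is the brightness of the array there. Of these 28 genes, 7 belong to a list of 8 mitotic kinesins (Kifc1, Kif11, Kif20a, Kif22, Kif23, Kif2c and Kif4), while the other of the 8, Kif15, had no probe set of its own. A further 3 work in cell division (Kif18a, Kif2a and Kifc5b), 16 carry cargo or serve intracellular transport, and Kif9 and Kif12 have other roles. After a filter on low values 22 of the 28 genes were tested, among 8397 genes in all.

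The arrays came from primary mouse embryonic fibroblasts (MEFs), connective tissue cells grown from E13.5 embryos whose strain background mixed C57BL/6 with 129. Brg1-/- cells (4 arrays) lacked Brg1 (gene Smarca4), an ATPase of the Swi/Snf chromatin remodelling complex, Snf5-/- cells (3 arrays) lacked its core subunit Snf5 (gene Smarcb1), and wild type cells (3 arrays) carried both. Cells of all 3 groups, wild type included, had received Cre recombinase by retrovirus and had been selected with puromycin at 2.5 ug/ml, so each group is a selected, infected population. Nothing in the labels states that arrays of a group came from separate embryos or cultures, and p-values therefore measure the spread between these arrays only. Both mutants were set against the same 3 wild type arrays, so the changes in the mutants are not independent of each other.

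A mitotic kinesin builds or reshapes the spindle: some slide microtubules apart, some push chromosome arms, some shorten microtubule ends, and some organise the midzone at which the cell is cleaved. Transport kinesins instead haul vesicles, organelles and RNA through the cytoplasm of cells whether or not they divide, and several are best known from axons. Most mitotic kinesin genes are transcribed in late S phase to mitosis, so their RNA is abundant only in dividing cells. In RNA from a whole culture, fewer dividing cells and less RNA per cell cannot be told apart.

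Levels below are intensities after quantile normalization, a linear scale without a unit on which all arrays share 1 distribution, and they are compared between groups within a probe set and never between genes. Changes are log2 differences of group means, with the standard error (SE) of the limma fit. P-values are limma's, two-sided, adjusted by the Benjamini-Hochberg method over all 8397 genes and read against 0.05. A gene with several probe sets was represented by the one of highest mean. On the deposited scale, without normalization between arrays, the wild type arrays were brighter, with a mean array median of 156 ± 12.1 in Brg1-/-, 173 ± 14.3 in Snf5-/- and 208 ± 22.6 in wild type (SD, n = 4, 3 and 3). Over all tested genes the median change (log2) was -0.47 in Brg1-/- and -0.27 in Snf5-/- on that scale, against 0.02 in both after quantile normalization. Results are relative to that shift, and a call that did not hold on the deposited scale is named as such. Smarca4 averaged 523 ± 115 in Brg1-/- cells, 2883 ± 144 in Snf5-/- cells and 2228 ± 200 in wild type cells (SD, n as above), and Smarcb1 averaged 302 ± 0.905 in Snf5-/- cells, 1073 ± 99.1 in Brg1-/- cells and 785 ± 52.9 in wild type cells, so both targeted genes were low where the labels place the loss. All 10 fibroblast markers examined (among them Col1a1, Vim and Thy1) lay above the array background in every array of every group, where background is taken as the brightest of 27 control probe sets against Bacillus subtilis genes. That background ran from 21.9 in wild type replicate 1 to 64.8 in Brg1-/- replicate 2, so counts above it rest on unlike cutoffs. Of 10 macrophage and leukocyte markers 8 also lay above it in every array of each group. These 10 summed to 2124 to 5726 in Brg1-/-, 2637 to 10716 in Snf5-/- and 2449 to 5158 in wild type. The highest Snf5-/- sum was that of replicate 2, where Lyz2 read 5630, against 1057 and 1293 in replicates 1 and 3. The presence of macrophages or leukocytes was not tested.

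In Brg1-/- cells every measured mitotic kinesin was higher than in wild type cells, while the transport kinesins split between no call and lower. All 7 mitotic kinesins rose, by 0.85 (Kif2c) to 3.39 (Kifc1) on the log2 scale, with a median of 1.30 against 0.02 for all genes. In each of the 7 no Brg1-/- array overlapped a wild type array, which held for 39.4% of all tested genes. Of the 13 tested transport kinesins 3 fell, 0 rose and 10 did not pass, with a median change of -0.26. Over all 22 kinesins 8 were called higher and 3 lower, against 14.9% of all tested genes higher and 12.9% lower (27.8% in either direction). Among the 8, Kifc1 and Kif18a passed the filter on low values through their Brg1-/- arrays (Kifc1 in 4 of 4 Brg1-/-, 1 of 3 Snf5-/- and 0 of 3 wild type arrays, and Kif18a in 3 of 4 Brg1-/-, 1 of 3 Snf5-/- and 0 of 3 wild type arrays), so the filter itself favoured a difference in these genes, and their calls are a description. On the deposited scale 5 of the 7 mitotic kinesins rose (Kifc1, Kif11, Kif20a, Kif22 and Kif4) with a median of 0.81, and 9 of the 13 transport kinesins fell, with 3.43% of all genes called higher there and 44.1% lower. In Snf5-/- cells 2 mitotic kinesins rose (Kif11 and Kif22), 5 did not pass, and 6 transport kinesins fell, against 10.6% of all genes called higher and 7.47% lower (18.1% in either direction). Neither rise in Snf5-/- held on the deposited scale, where 0 of 7 mitotic kinesins passed and 3.16% of all genes were called higher. The same 6 falls did hold there, beside 16.1% of all genes called lower. The median change of all genes in Snf5-/- was -0.27 on that scale, so it favoured falls and worked against rises. Of the 6 falls, only that of Kif1a held under all alternatives tried. The arrays of Snf5-/- and wild type were separate for 2 of the 7 mitotic kinesins and for 35.7% of all genes.

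**Figure D1:**
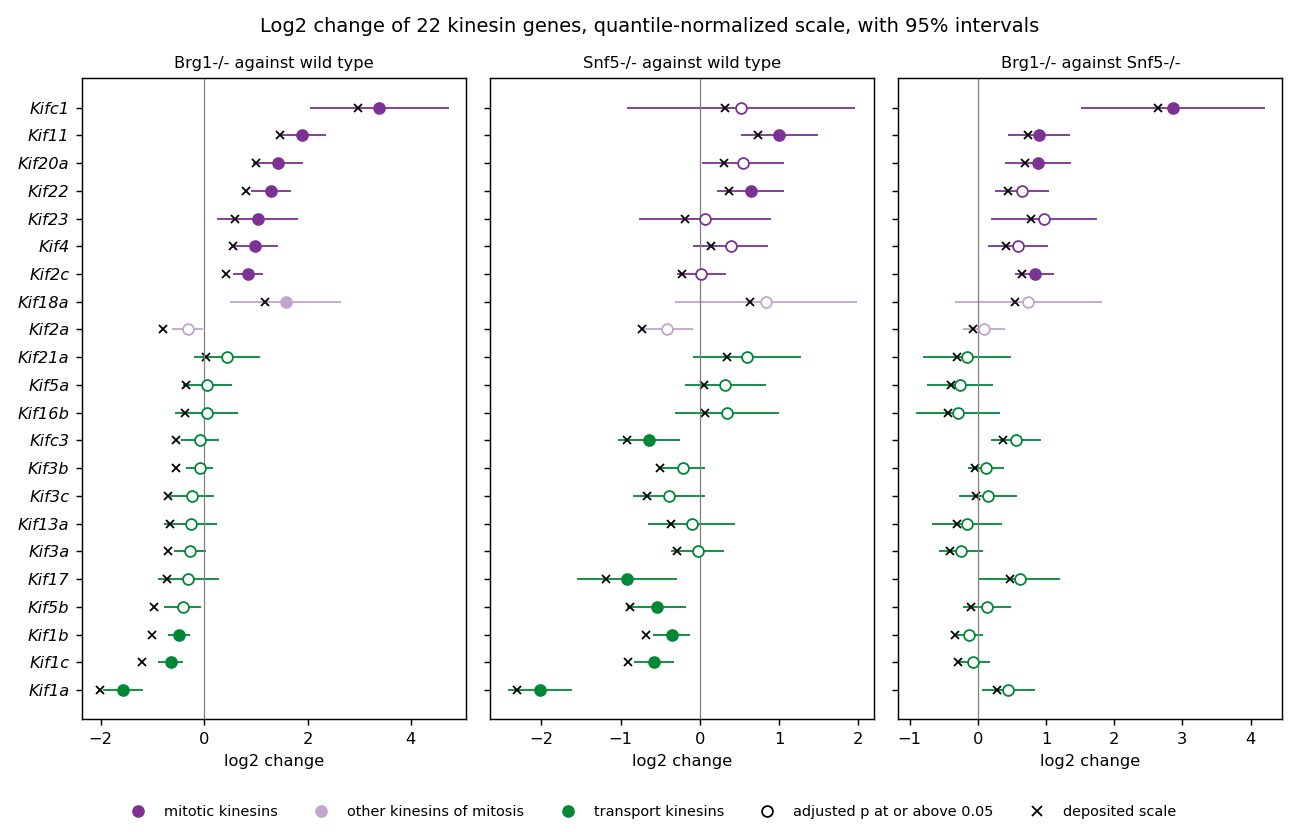
Log2 change of each of the 22 tested kinesin genes (rows) in Brg1-/- against wild type (left), Snf5-/- against wild type (middle) and Brg1-/- against Snf5-/- (right). Circles with lines are the change and its 95% interval on the quantile-normalized scale, filled where the adjusted p was below 0.05, and crosses are the change on the deposited scale. In Brg1-/- cells the 7 mitotic kinesins lie between 0.85 and 3.39, and Kif1a lies at -1.57 there and at -2.02 in Snf5-/- cells.

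Promoter sequences of the mitotic kinesins are given because these genes moved together in Brg1-/- cells. Each sequence runs 5′ to 3′ on the strand of the gene, from 90 bases before the annotated transcription start to 25 bases from it, in RefSeq on mouse build GRCm38.p6. Capitals mark 2 short motifs known from promoters of genes of the G2 and M phases, the CCAAT box (CCAAT, or ATTGG on the other strand), bound by the factor NF-Y, and the cell cycle genes homology region, or CHR (TTTGAA, or TTCAAA on the other strand), bound by MuvB complexes such as DREAM. Kif11 at chr19:37376292-37376406, plus strand, drives spindle pole separation.
Kif11: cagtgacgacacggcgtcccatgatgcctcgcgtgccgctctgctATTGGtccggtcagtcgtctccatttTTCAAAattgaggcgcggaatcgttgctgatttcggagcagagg
Kif22 at chr7:127042396-127042510, minus strand, encodes a chromosome-arm motor.
Kif22: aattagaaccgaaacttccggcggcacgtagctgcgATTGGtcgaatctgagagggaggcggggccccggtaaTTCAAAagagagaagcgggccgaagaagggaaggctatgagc
Kif23 at chr9:61946775-61946889, minus strand, encodes a motor of the cleavage midzone.
Kif23: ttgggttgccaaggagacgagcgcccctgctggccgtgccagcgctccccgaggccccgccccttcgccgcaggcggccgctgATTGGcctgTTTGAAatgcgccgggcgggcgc
Kif4 at chrX:100625975-100626089, plus strand, encodes a motor of chromosomes and the midzone.
Kif4: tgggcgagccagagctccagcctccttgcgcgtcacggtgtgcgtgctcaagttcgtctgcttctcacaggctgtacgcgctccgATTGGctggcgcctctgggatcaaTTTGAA
Kifc1 at chr17:33890609-33890723, minus strand, encodes a motor that moves towards microtubule minus ends.
Kifc1: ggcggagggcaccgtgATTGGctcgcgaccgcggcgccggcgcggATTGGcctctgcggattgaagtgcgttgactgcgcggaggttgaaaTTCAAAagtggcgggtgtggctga

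Kif2c and the transport genes Kif1a and Kif1c, which are the transport genes with falls in both mutants other than Kif1b, are shown for contrast. No match to either motif lies in these 115 bases of the 3 promoters.
Kif2c, chr4:117178748-117178862, minus strand.
Kif2c: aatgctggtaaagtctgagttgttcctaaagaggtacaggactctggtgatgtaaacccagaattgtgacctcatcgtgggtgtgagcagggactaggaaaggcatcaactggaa
Kif1a, chr1:93101850-93101964, minus strand.
Kif1a: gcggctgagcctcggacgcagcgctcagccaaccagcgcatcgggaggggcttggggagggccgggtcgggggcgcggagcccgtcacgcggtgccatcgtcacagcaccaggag
Kif1c, chr11:70700458-70700572, plus strand.
Kif1c: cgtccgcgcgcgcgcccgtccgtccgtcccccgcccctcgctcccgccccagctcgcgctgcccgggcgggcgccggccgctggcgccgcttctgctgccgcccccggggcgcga

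Both strands were searched for these letters over the 300 bases of each promoter in the table, from 250 before the start to 50 from it. CCAAT occurred in 41.1% of 27025 genes with a promoter, TTTGAA in 20.2% and both in 7.97%. Of 6 mitotic kinesins with a promoter that could be used (Kif20a was not used here), 5 held CCAAT, 6 held TTTGAA and 5 held both. Of 11 transport kinesins 3 held CCAAT, 1 (Kif1a) held TTTGAA and 0 held both. RefSeq gives Kif1a 2 promoters here, and the match, at -44 to -39, lies in the one not printed. The match nearest the start was at -45 to -41 for CCAAT and at -19 to -14 for TTTGAA in Kif11, and at -54 to -50 and -17 to -12 in Kif22, counted from the start with bases before it negative. Kif23 had CCAAT at -7 to -3 and TTTGAA at 3 to 8, and Kif4 had them at -5 to -1 and 20 to 25. Kifc1 had CCAAT 3 times, at -74 to -70, -45 to -41 and 25 to 29, and TTTGAA at 2 to 7. The match to TTTGAA in Kif2c, at -103 to -98, lies outside the printed stretch, and no CCAAT was found in its window. Letters typical of E2F sites (TTCCCGC, the variant TTGGCGC and the other variant TTCGCGC) occurred in 9.20% of all genes, in 0 of the 6 mitotic kinesins and in 1 of the 11 transport kinesins (Kif16b). The E2F variant with TTGG shares letters with the reversed CCAAT box, so 1 stretch can match both. A match describes the sequence and not binding.

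**Figure D2:**
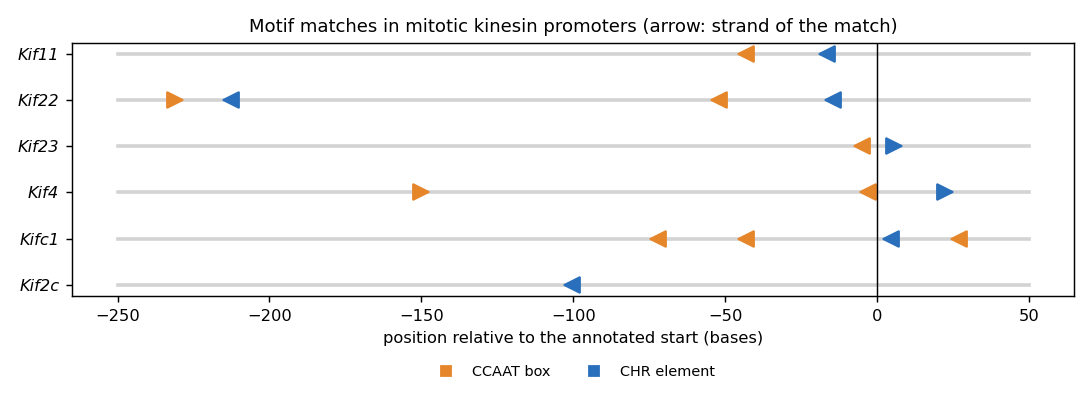
Position of each match to CCAAT (orange) and TTTGAA (CHR, blue) relative to the annotated transcription start, in bases, for the 6 mitotic kinesins with a promoter in the table. Grey lines are the 300 bases searched and arrows give the strand of the match. The 6 promoters each hold a CHR match, and Kif2c has no CCAAT match.

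Kifc1 encodes a kinesin that moves towards minus ends, bundles spindle microtubules and gathers centrosomes. Its probe set read 562, 465, 553 and 378 in Brg1-/- arrays 1 to 4, 16.7, 95.2 and 184 in Snf5-/- arrays 1 to 3 and 51.5, 29.2 and 65.6 in wild type arrays 1 to 3. Every Brg1-/- array was above every other array, while Snf5-/- replicate 1 was below background and the other 2 Snf5-/- arrays exceeded wild type. Kifc1 was higher in Brg1-/- cells by 3.39 ± 0.62 (adjusted p = 0.00195), a 10.5-fold difference. Its adjusted p was 0.0029 in the fit of all genes without the filter. The wild type arrays were above their backgrounds of 21.9, 25.1 and 51.2, but 0 of 3 reached the filter. The size of the fold is therefore uncertain. In Snf5-/- cells the change was 0.52 ± 0.66 (adjusted p = 0.634). The probe set may also read Kifc5b, a near-identical gene on the same chromosome, so the share of each is uncertain. The probe set of Kifc5b itself was at or below background in 9 of the 10 arrays.

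Kif11 (Eg5) slides antiparallel microtubules apart and so separates the spindle poles. Its intensity was 283, 343, 420.1 and 329.9 in Brg1-/- arrays, 202, 161 and 189 in Snf5-/- arrays and 106, 106 and 67.4 in wild type arrays. The 3 groups did not overlap in any pair, with Brg1-/- highest and wild type lowest. Kif11 rose by 1.90 ± 0.21 (adjusted p = 5.96e-05) in Brg1-/- cells and by 1.01 ± 0.22 (adjusted p = 0.00891) in Snf5-/- cells, where the adjusted p was 0.0598 on the deposited scale. All 3 of its probe sets were higher in Brg1-/- cells, by 1.46 to 1.90, when each was tested on its own. In Snf5-/- cells all 3 were positive, at 0.40 to 1.01, and 1 was called.

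Kif20a (Mklp2) brings the chromosomal passenger complex to the spindle midzone. It read 657, 959.9, 839 and 625 in Brg1-/- arrays, 575, 330.1 and 363 in Snf5-/- arrays and 216, 332 and 309.6 in wild type arrays. Brg1-/- arrays lay above all others, and Snf5-/- and wild type overlapped. The rise in Brg1-/- was 1.43 ± 0.22 (adjusted p = 0.000669), and the change in Snf5-/- was 0.55 ± 0.24 (adjusted p = 0.136).

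Kif22 (Kid) pushes chromosome arms away from the poles. Its levels were 633, 975, 892 and 780.2 in Brg1-/- cells, 595, 439 and 524 in Snf5-/- cells and 386, 361 and 258 in wild type cells. Again no array of 1 group crossed into another, in the order Brg1-/-, Snf5-/-, wild type. Kif22 rose by 1.30 ± 0.18 (adjusted p = 0.000308) in Brg1-/- and by 0.64 ± 0.19 (adjusted p = 0.0377) in Snf5-/-, the second of which did not hold on the deposited scale (adjusted p = 0.297). That call was also lost without wild type replicate 2 or 3, Snf5-/- replicate 1 or 3, or Brg1-/- replicate 3, with adjusted p up to 0.154. In the fit without the filter its adjusted p was 0.0527. Tested on their own, its 3 probe sets were at 0.42 to 0.74 in Snf5-/-, of which 1 was called. In Brg1-/- all 3 were called, at 1.30 to 1.52.

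Kif23 (Mklp1) forms the centralspindlin complex of the cleavage furrow with Racgap1. Its levels were 304, 464, 560.0 and 329 in Brg1-/- arrays, 359, 100.5 and 239.9 in Snf5-/- arrays and 218, 209 and 165 in wild type arrays. All Brg1-/- arrays exceeded wild type, whereas the Snf5-/- arrays spread from below to above it. Kif23 rose in Brg1-/- by 1.03 ± 0.36 (adjusted p = 0.0478), and its change in Snf5-/- was 0.07 ± 0.38 (adjusted p = 0.925). The rise was not called on the deposited scale (adjusted p = 0.141) or in the fit without the filter (adjusted p = 0.0713). It was also lost without any 1 of the 3 wild type arrays, Snf5-/- replicate 3, or Brg1-/- replicate 2, 3 or 4, with adjusted p up to 0.151.

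Kif2c (MCAK) takes tubulin off microtubule ends and corrects faulty attachments at kinetochores. It read 469.6, 426, 530.5 and 491 in Brg1-/- arrays, 284, 272 and 249 in Snf5-/- arrays and 229.7, 281 and 286 in wild type arrays. Brg1-/- arrays stood above the rest, and the Snf5-/- arrays lay within the wild type range. The rise in Brg1-/- was 0.85 ± 0.13 (adjusted p = 0.000615), with an adjusted p of 0.0549 on the deposited scale, and the Snf5-/- change was 0.02 ± 0.14 (adjusted p = 0.940). Its probe sets differed in Snf5-/- cells: another one was higher by 0.74 ± 0.23 (adjusted p = 0.0454 over all probe sets), and the 3 tested probe sets ranged from 0.02 to 0.74.

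Kif4 is a chromosome-bound motor that, with Prc1, sets the length of midzone microtubules. Its levels were 473, 666, 579 and 519 in Brg1-/- cells, 521, 343 and 279 in Snf5-/- cells and 232, 307 and 313 in wild type cells. The Brg1-/- arrays all exceeded wild type, while Snf5-/- replicate 1 reached into the Brg1-/- range. Kif4 rose in Brg1-/- by 0.98 ± 0.21 (adjusted p = 0.00419) and differed in Snf5-/- by 0.39 ± 0.22 (adjusted p = 0.249).

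**Figure D3:**
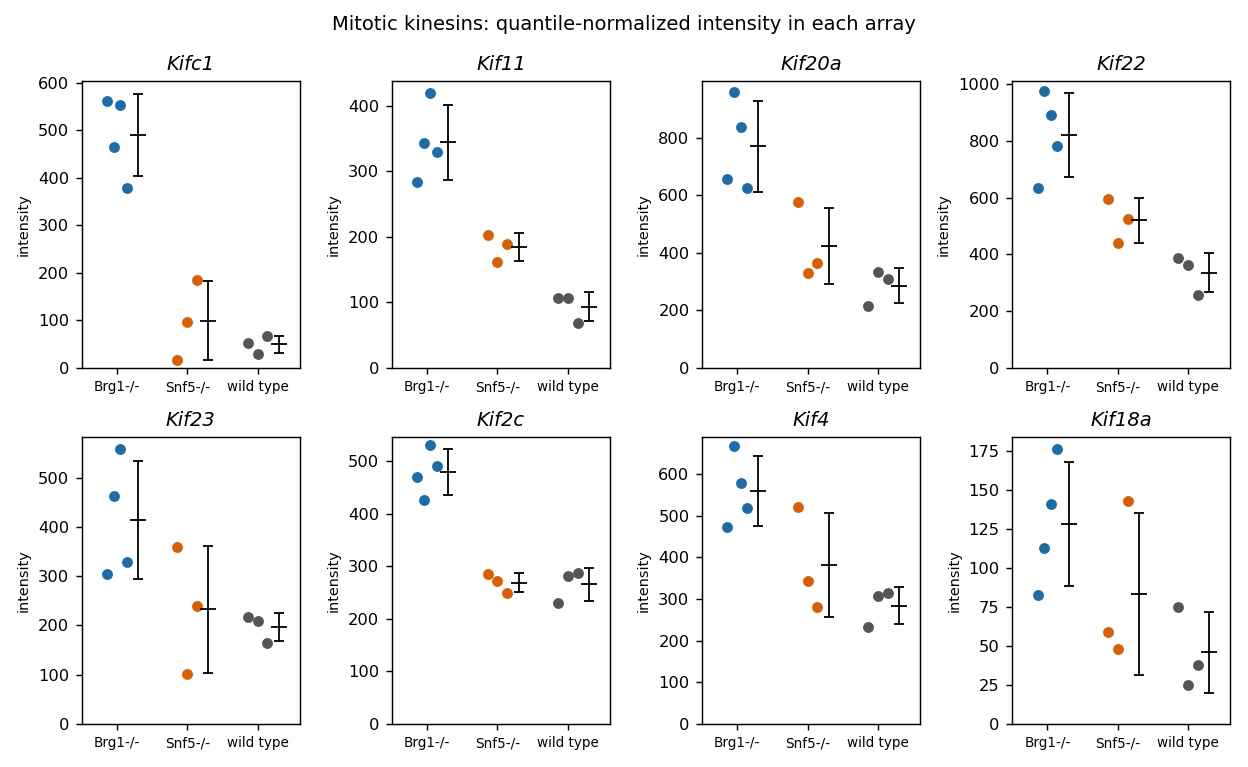
Quantile-normalized intensity (linear, no unit) of 7 mitotic kinesins and Kif18a in each array of Brg1-/- (blue), Snf5-/- (orange) and wild type (grey), with the mean and SD of each group beside the points. For the 7 mitotic kinesins every Brg1-/- point lies above every wild type point, and Kif11 and Kif22 are the 2 genes whose Snf5-/- points also all lie above wild type.

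Of the other division kinesins, Kif18a restrains chromosome movements at the metaphase plate. It read 82.8, 112, 141 and 176 in Brg1-/- arrays, 58.8, 47.7 and 142 in Snf5-/- arrays and 74.8, 24.9 and 37.8 in wild type arrays. All 4 Brg1-/- arrays were above background, against 1 of 3 Snf5-/- arrays and 1 of 3 wild type arrays, so the lower levels are poorly measured. Kif18a was higher in Brg1-/- by 1.58 ± 0.49 (adjusted p = 0.0323), a call not made on the deposited scale (adjusted p = 0.0706). It had passed the filter through its Brg1-/- arrays, and its adjusted p in the fit of all genes without the filter was 0.0388. The call was lost without wild type replicate 2 or 3 or Brg1-/- replicate 2, 3 or 4, with adjusted p up to 0.125. Kif2a, a depolymerase of spindle poles that also acts in neurons, had probe sets of both signs in Brg1-/- cells (-0.32 to 0.08 over 4 tested probe sets). In Snf5-/- cells it differed by -0.42 ± 0.15 (adjusted p = 0.0749) without passing. All 4 probe sets were negative there, at -0.53 to -0.18, with none called on its own. With replicate number as a block in the fit, the adjusted p in Snf5-/- was 0.0358. Kif2a was lower in both mutants on the deposited scale (adjusted p = 0.00276 in Brg1-/- and 0.0195 in Snf5-/-).

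Most partners of the mitotic motors also rose in Brg1-/- cells. Of 24 tested spindle genes 20 rose and 0 fell in Brg1-/- cells (median 1.23), and 11 rose and 0 fell in Snf5-/- cells (median 0.56), against 14.9% and 10.6% of all genes higher. On the deposited scale 15 rose and 1 fell in Brg1-/-, and 3 rose and 1 fell in Snf5-/-, against 3.43% and 3.16% of all genes higher there. Incenp, a subunit of the chromosomal passenger complex that Kif20a carries, rose by 1.59 ± 0.13 (adjusted p = 7.12e-06) in Brg1-/- and by 0.82 ± 0.14 (adjusted p = 0.00192) in Snf5-/-. Racgap1, the partner of Kif23, rose by 1.24 ± 0.14 (adjusted p = 6.76e-05) and by 0.47 ± 0.15 (adjusted p = 0.0448) in the same comparisons. Prc1, the partner of Kif4, rose by 1.12 ± 0.16 (adjusted p = 0.000410) in Brg1-/- cells and differed by 0.22 ± 0.17 (adjusted p = 0.406) in Snf5-/- cells. The Snf5-/- rises of Incenp and Racgap1 were not called on the deposited scale (adjusted p = 0.0600 and 0.488). Racgap1 and Prc1 were picked for these ties after their values had been seen. Plk1, a kinase that phosphorylates several of these motors, rose by 1.74 ± 0.19 (adjusted p = 5.83e-05) in Brg1-/- and 1.03 ± 0.20 (adjusted p = 0.00478) in Snf5-/-.

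General markers of dividing cells were examined beside them. Of 11 tested proliferation genes 9 rose and 0 fell in Brg1-/- cells (median 1.49), and 5 rose and 1 fell in Snf5-/- cells (median 0.51). Of all genes 14.9% were higher in Brg1-/-, and 10.6% were higher and 7.47% lower in Snf5-/-. Without normalization the counts were 7 and 1 in Brg1-/-, and 3 and 1 in Snf5-/-, with 3.43% and 3.16% of all genes higher. Mki67, the Ki-67 antigen, rose by 1.89 ± 0.18 (adjusted p = 2.41e-05) in Brg1-/- and by 0.85 ± 0.19 (adjusted p = 0.0104) in Snf5-/-, the second not on the deposited scale (adjusted p = 0.0910). Measured as each array's median deviation from the mean over the 10 arrays (log2), the 7 mitotic kinesins lay at 0.48 to 0.85 in Brg1-/- arrays, -0.30 to 0.14 in Snf5-/- arrays and -0.79 to -0.50 in wild type arrays. The 11 proliferation genes lay at 0.52 to 0.77 in Brg1-/- arrays, -0.35 to 0.16 in Snf5-/- arrays and -0.96 to -0.56 in wild type arrays. In both lists the groups did not overlap, with Snf5-/- between Brg1-/- and wild type, and within Snf5-/- replicate 1 was highest and replicate 2 lowest in both. The part of the dividing share of cells in the kinesin changes was not tested.

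Among the transport kinesins Kif1a, Kif1b and Kif1c, which belong to the kinesin-3 family, were lower in both mutants. Kif1a, the axonal motor of synaptic vesicle precursors, read 212, 243, 239.7 and 299 in Brg1-/- arrays, 150.2, 221 and 177 in Snf5-/- arrays and 602, 769 and 839.8 in wild type arrays. The wild type arrays stood clear of both mutants, whose arrays overlapped each other. Kif1a fell by 1.57 ± 0.18 in Brg1-/- cells (log2 ± SE, adjusted p = 7.04e-05) and by 2.02 ± 0.19 in Snf5-/- cells (adjusted p = 3.72e-05), which are folds of 2.96 and 4.05. Its second probe set changed by -1.75 in Brg1-/- and by -1.97 in Snf5-/-, both called.

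Neuron and muscle markers were examined beside Kif1a, since this gene is best known from neurons. Of 10 neuron markers 3 lay above background in every Brg1-/- array, 4 in every Snf5-/- array and 4 in every wild type array, at unlike array backgrounds. Their summed intensities were 1426 to 1681 in Brg1-/-, 1439.5 to 1978 in Snf5-/- and 1599.5 to 2026 in wild type. Stmn2 made up most of that sum, at 919 to 1142 in Brg1-/-, 953 to 1319 in Snf5-/- and 998 to 1213 in wild type, while the other 9 summed to 466 to 591 in Brg1-/-, 486 to 659 in Snf5-/- and 576 to 814 in wild type. Map2, a dendritic microtubule-associated protein that is also in the list of tubulins and associated genes, was above background in all 10 arrays and read 168, 133, 218 and 151 in Brg1-/- arrays, 102, 91.0 and 107 in Snf5-/- arrays and 187, 215 and 450 in wild type arrays. Map2 fell by 1.39 ± 0.31 in Snf5-/- (adjusted p = 0.00873), as Kif1a did, and differed by -0.67 ± 0.29 (adjusted p = 0.102) in Brg1-/-, where it was called lower on the deposited scale (adjusted p = 0.00501). Rbfox3, which encodes the nuclear antigen NeuN, exceeded background in wild type replicates 1 and 2 (37.6 and 29.2, with backgrounds of 21.9 and 25.1). In the mutant arrays it read 2.96 to 8.62 and exceeded background in none. Nefl went the other way in Snf5-/-, at 92.3, 38.9 and 121 against 1.37, 31.0 and 11.1 in wild type. Some of these Nefl arrays lay below background, and it read 6.24 to 52.7 in Brg1-/-. Tubb3 overlapped between all groups, at 138 to 215 in Brg1-/-, 174 to 220 in Snf5-/- and 170 to 200 in wild type. Snap25, a defining synaptic gene, was at or below background in all 10 arrays. The part of neuron marker levels in the Kif1a result was not tested.

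Of 5 skeletal muscle markers 2 lay above background in every Brg1-/- array, 3 in every Snf5-/- array and 4 in every wild type array, and their summed intensity was 661 to 926 in Brg1-/-, 781 to 1938 in Snf5-/- and 5175 to 6213 in wild type. Acta1, the actin of skeletal muscle, carried most of the difference, at 283 to 416 in Brg1-/-, 404 to 1253 in Snf5-/- and 4361 to 5548 in wild type, while the other 4 summed to 368 to 509.6 in Brg1-/-, 377 to 685 in Snf5-/- and 665 to 822 in wild type. Of 3 tested muscle markers 2 were called lower in Brg1-/- and 1 in Snf5-/-, against 12.9% and 7.47% of all genes. Des read 40.1 to 260 in Brg1-/-, below all wild type arrays (379 to 504), and 72.4 to 484 in Snf5-/-. Ckm, the muscle creatine kinase, overlapped between all groups, at 133 to 239 in Brg1-/-, 128 to 198 in Snf5-/- and 150.1 to 207 in wild type, and did not pass in either mutant (adjusted p = 0.990 in Brg1-/- and 0.682 in Snf5-/-). Acta1 was high in the 3 arrays in which Kif1a was high, and its part in the Kif1a result was not tested.

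Kif1b carries mitochondria and vesicles. Its highest probe set read 839, 782, 867 and 806 in Brg1-/- arrays, 967, 943 and 806 in Snf5-/- arrays and 1186, 1085 and 1191 in wild type arrays. Both mutants lay wholly below wild type and overlapped each other. That probe set fell by 0.49 ± 0.10 in Brg1-/- (adjusted p = 0.00364) and by 0.35 ± 0.11 in Snf5-/- (adjusted p = 0.0375). The gene's 7 probe sets did not move as one: they ranged from -0.55 to 0.45 in Brg1-/-, where 2 were lower, and from -0.39 to 0.52 in Snf5-/-, where 1 was lower. With all probe sets averaged, the change in Snf5-/- was 0.01 (adjusted p = 0.945) and the fall in Brg1-/- was not called either. The Snf5-/- call was also lost without any 1 of the 3 wild type arrays, Snf5-/- replicate 3 or Brg1-/- replicate 3, with adjusted p up to 0.124. With replicate number as a block in the fit its adjusted p was 0.0603.

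Kif1c works in traffic between Golgi and endoplasmic reticulum and in carrying integrins. It read 1129, 1032, 1162 and 1167 in Brg1-/- arrays, 1405, 1046 and 1104 in Snf5-/- arrays and 1706, 1822 and 1731 in wild type arrays. No mutant array reached the lowest wild type array. Kif1c fell by 0.64 ± 0.11 in Brg1-/- (adjusted p = 0.00127) and by 0.58 ± 0.12 in Snf5-/- (adjusted p = 0.00589). Its second tested probe set differed by -0.07 in Brg1-/- and -0.24 in Snf5-/- without a call, and with the probe sets averaged neither fall was called.

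Kif5b is the conventional kinesin heavy chain that most cells use. Its highest probe set read 1401, 1154, 1529 and 1120.5 in Brg1-/- arrays, 1479.5, 1209 and 912 in Snf5-/- arrays and 1821, 1800.1 and 1550.4 in wild type arrays. Both mutants lay below wild type, by a narrow margin for Brg1-/- replicate 3. Its change was -0.41 ± 0.16 (adjusted p = 0.0758) in Brg1-/- cells, and it fell by 0.55 ± 0.17 in Snf5-/- cells (adjusted p = 0.0462). Both were called on the deposited scale (adjusted p = 0.00112 in Brg1-/- and 0.0102 in Snf5-/-). The Snf5-/- call was lost without any 1 of the wild type arrays, Snf5-/- replicate 2 or 3, or Brg1-/- replicate 1 or 2, with adjusted p up to 0.139. It was also lost in the fit without the filter (adjusted p = 0.0591) and with the probe sets averaged (adjusted p = 0.139). With each probe set tested on its own, the one shown had an adjusted p of 0.0509. The 5 probe sets ranged from -0.84 to 0.03 in Snf5-/- cells, where 1 was lower. Of its 5 probe sets 2 others were lower in Brg1-/- cells, 1 with a change of -1.46 (adjusted p = 0.00135 over all probe sets) and 1 with -0.76 (adjusted p = 0.000474).

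Kifc3 and Kif17 fell in Snf5-/- cells. Kifc3, a minus-end motor of cell junctions, read 498, 477, 483 and 564 in Brg1-/- arrays, 464, 264 and 326 in Snf5-/- arrays and 565, 563 and 478 in wild type arrays. The Snf5-/- arrays were below all others, while Brg1-/- and wild type overlapped. Kifc3 fell by 0.64 ± 0.18 in Snf5-/- (adjusted p = 0.0289) and differed by -0.08 ± 0.17 (adjusted p = 0.759) in Brg1-/-, where it was called lower on the deposited scale by 0.54 (adjusted p = 0.0433). The Snf5-/- fall was lost without wild type replicate 1 or 2 or Snf5-/- replicate 2 or 3, with adjusted p up to 0.0922.

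Kif17, a dendritic motor that carries glutamate receptors, read 255, 186, 328 and 228 in Brg1-/- arrays, 171, 234 and 101 in Snf5-/- arrays and 282, 261 and 369.6 in wild type arrays. The Snf5-/- arrays lay below the wild type ones, and the Brg1-/- arrays overlapped with both groups. It fell by 0.92 ± 0.29 in Snf5-/- (adjusted p = 0.0472) and differed by -0.30 ± 0.27 (adjusted p = 0.448) in Brg1-/-, with a fall of 0.71 called there on the deposited scale (adjusted p = 0.0314). Its second tested probe set had the opposite sign, with 0.38 in Snf5-/- and 0.16 in Brg1-/-, neither called. The Snf5-/- fall was lost without any 1 of the wild type arrays, Snf5-/- replicate 1 or 3, or Brg1-/- replicate 1 or 4, with adjusted p up to 0.168. That fall was also lost in the fit without the filter (adjusted p = 0.0723) and with replicate number as a block (adjusted p = 0.0858).

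**Figure D4:**
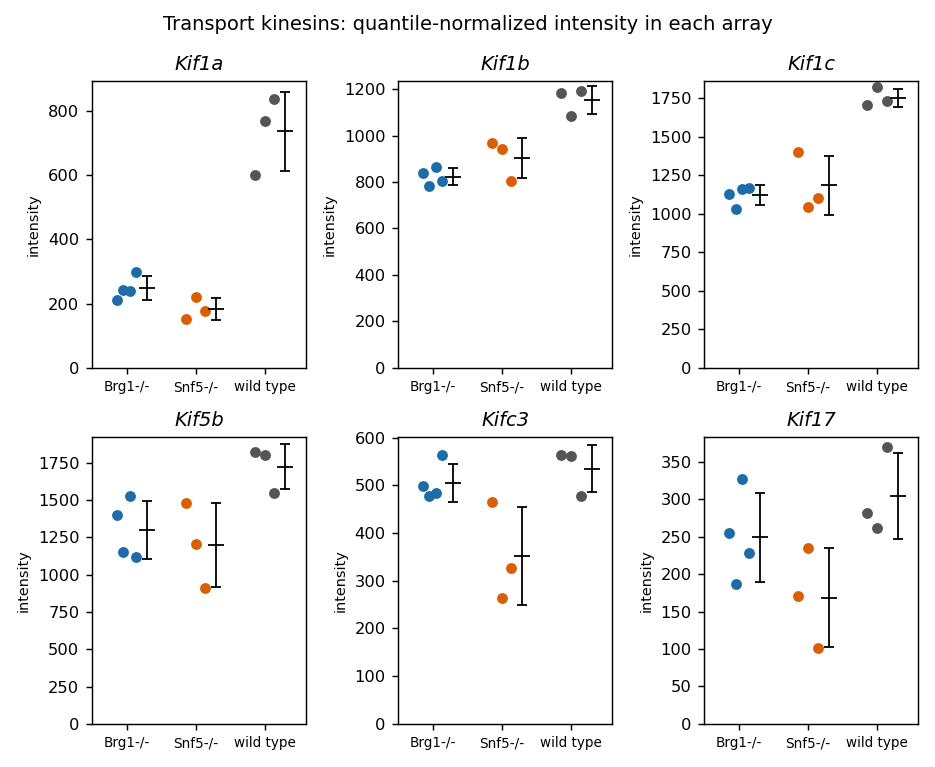
Quantile-normalized intensity (linear, no unit) of 6 transport kinesins in each array of Brg1-/- (blue), Snf5-/- (orange) and wild type (grey), with the mean and SD of each group beside the points. Kif1a averaged 248 in Brg1-/- and 183 in Snf5-/- against 737 in wild type, and for Kif1a, Kif1b and Kif1c every mutant point lies below every wild type point.

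The other transport kinesins did not pass in either mutant after quantile normalization. These were Kif3a and Kif3b, the heavy chains of the heterotrimeric motor of cilia and vesicles, Kif3c, the endosome motors Kif13a and Kif16b, the neuronal heavy chain Kif5a, and Kif21a, a regulator of microtubule growth. The 10 transport kinesins that did not pass in Brg1-/- differed by -0.41 to 0.44 (adjusted p from 0.0758 to 0.918). The 7 that did not pass in Snf5-/- differed by -0.39 to 0.60 (adjusted p from 0.217 to 0.923). Kif3a had probe sets of opposite sign in Brg1-/- cells, at -0.27 and 0.02. Without normalization Kif3a (adjusted p = 0.00878), Kif3b (adjusted p = 0.0194) and Kif3c (adjusted p = 0.00991) were called lower in Brg1-/- cells, and Kif3c was called lower in Snf5-/- cells as well, by 0.67 (adjusted p = 0.0396).

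Tested on its own with p-values adjusted over all probe sets, each mitotic probe set pointed upwards. All 13 mitotic probe sets were positive in Brg1-/-, of which 12 were higher, and all 13 were positive in Snf5-/-, of which 3 were higher. Several of the 13, among them that of Kifc1 and some of Kif22 and Kif11, reached the filter on low values in no wild type array. A Kif22 probe set reached it in Brg1-/- arrays alone (89.0 to 173, against 62.6 to 82.5 in Snf5-/- and 50.3 to 60.4 in wild type). The filter itself favoured a difference from wild type in these, and the counts are a description. Of 30 transport probe sets 23 were negative and 7 lower in Brg1-/-, and 22 were negative and 6 lower in Snf5-/-. None of these 30 was higher in either mutant. Of 13370 probe sets tested in all, 12.8% were higher and 12.2% lower in Brg1-/-, and 8.78% were higher and 8.03% lower in Snf5-/-. Probe sets of 1 gene share its RNA and do not count as replicates.

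**Figure D5:**
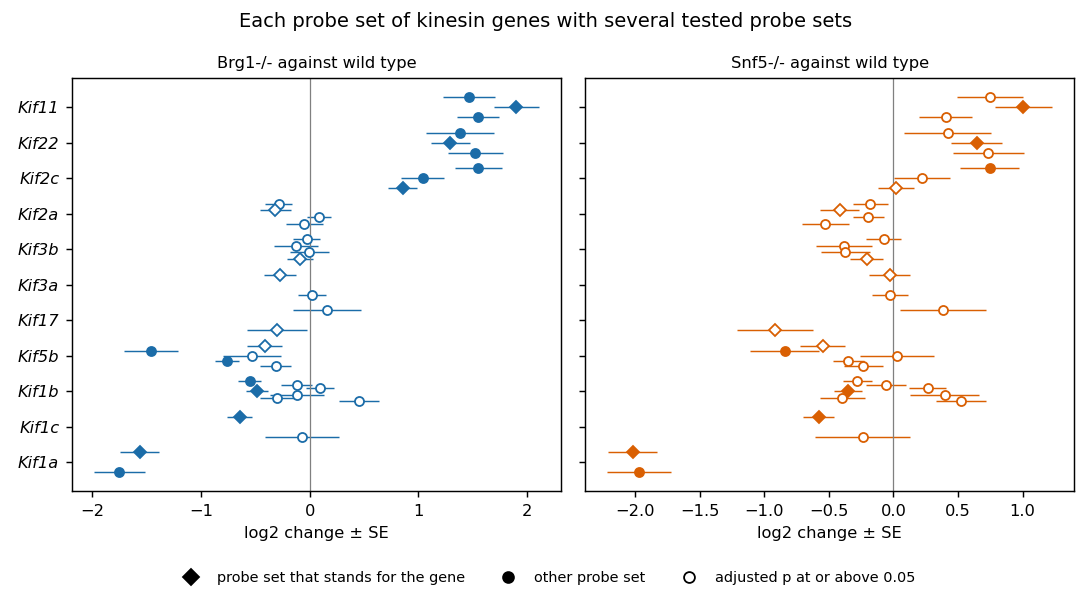
Log2 change with SE of every tested probe set of the kinesin genes with several, in Brg1-/- against wild type (left) and Snf5-/- against wild type (right). Diamonds are the probe sets that represent the gene, and filled symbols passed 0.05 when adjusted over all probe sets, which differs from the test over genes for Kif17 and Kif5b in Snf5-/-. The probe sets of Kif11 and Kif22 agree in sign, whereas those of Kif1b run from -0.55 to 0.45 in Brg1-/-.

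A total of 6 kinesins did not pass the filter on low values (Kif12, Kif21b, Kif5c, Kif9, Kifc2 and Kifc5b) and have no value in the counts above. Kif21b was at or below background in all 10 arrays. Kif5c, a neuronal heavy chain of conventional kinesin, read 90.4, 87.7, 66.6 and 37.5 in Brg1-/- arrays, 37.1, 60.7 and 29.7 in Snf5-/- arrays and 135, 127 and 101 in wild type arrays. Wild type was above both mutants, and only 1 of 3 Snf5-/- arrays exceeded background. In the fit of all 12393 genes without the filter Kif5c fell by 1.56 ± 0.42 in Snf5-/- (adjusted p = 0.0322) and differed by -0.85 ± 0.39 in Brg1-/- without passing (adjusted p = 0.173). The other 5 did not pass in that fit in any comparison.

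After quantile normalization adaptors and cargo genes of the transport motors were called at shares near those of all genes. Of 25 adaptor and cargo genes 3 rose and 3 fell in Brg1-/- (median -0.05), and 3 rose and 1 fell in Snf5-/- (median -0.10). Of all genes 14.9% were higher and 12.9% lower in Brg1-/-, and 10.6% and 7.47% in Snf5-/-. Without normalization 2 rose and 13 fell in Brg1-/- and 1 rose and 4 fell in Snf5-/-, against 3.43% and 44.1% of all genes in Brg1-/- and 3.16% and 16.1% in Snf5-/-. Clstn1, a cargo adaptor of conventional kinesin, rose by 1.07 ± 0.10 (adjusted p = 2.25e-05) in Brg1-/- and by 1.08 ± 0.11 (adjusted p = 6.47e-05) in Snf5-/-. Fez2, of a family of adaptors of conventional kinesin, fell by 0.76 ± 0.14 in Brg1-/- (adjusted p = 0.00246) and by 0.69 ± 0.15 in Snf5-/- (adjusted p = 0.00973). Kifap3, the third chain of the Kif3a and Kif3b motor, differed by 0.35 ± 0.13 (adjusted p = 0.0722) in Brg1-/- and rose by 0.60 ± 0.14 (adjusted p = 0.0132) in Snf5-/-, the second not on the deposited scale (adjusted p = 0.357).

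Of 20 tubulins and microtubule-associated genes 3 rose and 5 fell in Brg1-/- (median -0.11), and 1 rose and 4 fell in Snf5-/- (median -0.08), where the shares of all genes were those given above (14.9% and 12.9%, and 10.6% and 7.47%). Without normalization 0 rose and 14 fell in Brg1-/-, against 44.1% of all genes lower, and 0 rose and 9 fell in Snf5-/-, against 16.1%. Tuba4a, an alpha-tubulin, fell by 1.56 ± 0.12 in Brg1-/- (adjusted p = 4.92e-06) and by 1.73 ± 0.13 in Snf5-/- (adjusted p = 1.07e-05). Map6, which stabilises microtubules, fell by 1.78 ± 0.30 in Brg1-/- (adjusted p = 0.00113) and by 1.54 ± 0.32 in Snf5-/- (adjusted p = 0.00643). Tubb2b, a beta-tubulin, fell by 1.27 ± 0.24 in Brg1-/- (adjusted p = 0.00247) and by 0.95 ± 0.26 in Snf5-/- (adjusted p = 0.0243).

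Set directly against Snf5-/- cells, Brg1-/- cells had higher mitotic kinesins and no called difference in a transport kinesin. Over 22 kinesins 4 were higher and 0 lower, all 4 of them mitotic, against 2.10% of all genes higher and 2.27% lower (4.37% in either direction). Kifc1 was higher by 2.87 ± 0.62 (adjusted p = 0.0259), Kif11 by 0.90 ± 0.21 (adjusted p = 0.0336), Kif20a by 0.89 ± 0.22 (adjusted p = 0.0449) and Kif2c by 0.83 ± 0.13 (adjusted p = 0.00637). Kifc1 passed the filter on low values in 4 of 4 Brg1-/- and 1 of 3 Snf5-/- arrays. The filter itself favoured a difference here too, and the call of Kifc1 is a description. In the fit without the filter Kifc1 had an adjusted p of 0.0365. Kif11 and Kif20a were not called in that fit (adjusted p = 0.0571 and 0.0629). Kif22, Kif23 and Kif4 differed by 0.65 ± 0.18 (adjusted p = 0.0643), 0.97 ± 0.36 (adjusted p = 0.146) and 0.59 ± 0.21 (adjusted p = 0.126), without passing. No Brg1-/- array overlapped a Snf5-/- array in 5 of the 7, against 17.0% of all genes. The median of the 7 was 0.89, against -0.01 for all genes. On the deposited scale Kifc1 and Kif2c were called (adjusted p = 0.00984 and 0.0420), against 0.369% of all genes called higher there, and the median was 0.69.

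Of these calls, that of Kif2c held without any 1 of the arrays, but it was lost with all probe sets averaged (0.53, adjusted p = 0.183). Tested on their own, its 3 probe sets that passed the filter differed by 0.81 to 0.83, and 2 were called. The call of Kifc1 was lost without Brg1-/- replicate 1, 2 or 3 (adjusted p up to 0.0803). Kif11 was lost without any 1 of the Snf5-/- arrays or Brg1-/- replicate 2 or 3 (adjusted p up to 0.107). Kif20a was lost without wild type replicate 2 or 3, Snf5-/- replicate 2 or 3, or Brg1-/- replicate 1, 2 or 3 (adjusted p up to 0.126).

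The 13 transport kinesins differed between the mutants by -0.30 to 0.61, with adjusted p from 0.0857 (Kifc3) to 0.800. Kifc3 differed by 0.56 ± 0.17 (adjusted p = 0.0857) and Kif17 by 0.61 ± 0.27 (adjusted p = 0.214), so the Snf5-/- falls of both are not shown to differ from Brg1-/-. The 95% interval of the difference was 0.07 to 0.83 for Kif1a, with the Brg1-/- level above the Snf5-/- level and an adjusted p of 0.165. Of the 24 spindle partners 8 were higher, 0 lower and 16 did not pass, with a median of 0.64, and of the 11 proliferation genes 7 were higher and 4 did not pass, against 2.10% of all genes higher. On the deposited scale 2 of the 24 and 4 of the 11 were higher, against 0.369% of all genes. Ccna2, cyclin A2, was higher by 1.08 ± 0.13 (adjusted p = 0.00176).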

How the data were processed

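Total RNA of 10 samples of mouse embryonic fibroblasts was hybridised to Affymetrix arrays. The deposited values are probe set intensities on a linear scale, made by the authors with MAS5 per the submitters' processing notes; the sources used here give no version, scaling target or filter. The table held 22690 probe sets, of which 20380 carried a single gene symbol, and 0 values were missing or at or below 0. The deposited intensities were quantile-normalized (limma 3.58.1, normalizeQuantiles; R 4.3.3) and taken to log2 with no pseudocount. A gene was tested where its brightest probe set reached the 40th percentile of its array in at least 3 arrays. A mean per group was fitted by lmFit with eBayes and an intensity trend (7 residual degrees of freedom) for 3 comparisons, and the code was tested on simulated data. The deposited scale, other filters, scalings, probe set choices and fits, and leaving out each array, were alternatives. Intensities near background are the least certain, and the number of arrays limits precision. Named genes are the listed mitotic kinesins, Kif5b, any kinesin past the threshold in a comparison, and up to 4 members of smallest adjusted p of each other list, with the exceptions stated. The members and lists were chosen with earlier results of these data known. Promoters were taken from RefSeq (GRCm38.p6), and the arrays themselves have no coordinates.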

Additional observations from a re-analysis of the deposited data

How the results depend on the processing

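Falls of Kif1a in both mutants, and rises of Kifc1, Kif11, Kif20a, Kif22 and Kif4 in Brg1-/- cells, held under all 20 alternatives tried. Over all kinesins and comparisons, calls gave 358 outcomes on the same side of the threshold, 98 that lost it and 1 of opposite sign. Values without a call gave 814 on the same side and 25 that gained one. With every probe set tested on its own, these counts took the gene's probe set of smallest p-value. Kif5b in Snf5-/- was therefore counted as kept there, although the probe set shown was not called. The opposite sign was Kif1b in Snf5-/-, at 0.014 (adjusted p = 0.945, limma) with all probe sets averaged. In Snf5-/- the count of kinesins past the threshold was 8, against 4 with probe sets averaged, 5 with no intensity trend and 4 with only the 2 groups in the fit. The count of mitotic kinesins there was 2, against 0 on the deposited scale and 1 with median scaling, no filter, no intensity trend or only the 2 groups. Between Brg1-/- and Snf5-/-, kinesins past the threshold, all of them mitotic, numbered 4, against 2 on the deposited scale, with no filter, with no intensity trend or with only the 2 groups. For all genes the count in Brg1-/- was 2332 (53.7% of them higher), against 3990 on the deposited scale (7.22% higher). In Snf5-/- 58.7% of calls were higher, against 16.4% on the deposited scale, and between the mutants 48.0% against 8.59%. Between the mutants all genes numbered 367, against 193 with no intensity trend and 149 with only the 2 groups. The causes of these shifts were not tested.

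Leaving out 1 array gave 9 to 12 kinesins in Brg1-/- (6 to 7 mitotic), 3 (without wild type replicate 2) to 8 in Snf5-/- (1 to 2 mitotic) and 1 (without Brg1-/- replicate 2) to 5 between the mutants (1 to 4 mitotic). All genes past the threshold then numbered 1654 to 2515, 923 (without wild type replicate 3) to 1662, and 119 (without Brg1-/- replicate 3) to 491 in the same order.

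Replicate numbers were not used to pair the arrays in the main fit. Deviations of 9 same-numbered pairs correlated at -0.0738 to 0.102, with 1 over 0.1. Those of 24 other pairs correlated at -0.122 to 0.0905. With 3 or 4 arrays in a group, such values cannot show whether equal numbers mark a shared culture or batch. With the replicate block, kinesins past the threshold numbered 9 in Brg1-/- (6 mitotic), with Kif23 and Kif18a lost (adjusted p = 0.0642 and 0.0752, limma), mitotic kinesins numbered 1 in Snf5-/-, and 2 kinesins, both mitotic, were past it between the mutants. Intensity over background limits Kif18a, Kif5c and Kifc1 in the groups where arrays lay at or below it.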
